A study of Setaria viridis with 24 samples.

Results

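The comparison described here set the crown of drought plants at 9 days after sowing against the crown of watered plants at 6 days after sowing in Setaria viridis, a small C4 grass. It covered every gene in the authors' deposited table for that pair, which listed 19591 of the 20865 genes listed in any of the 28 pair tables of the study. Drought day 9 crowns and watered day 6 crowns had 3 libraries each, 1 from each of 3 biological repeats. The other groups used were watered day 9 crowns, drought day 6 crowns and the 4 corresponding stem groups, so that the study held 24 libraries in 8 groups. All plants grew in a mix of 25% sand and 75% peat, and 20 plants were harvested per sample. RNA came from the region labelled lower (crown) or upper (stem), depleted of ribosomal RNA, in libraries that keep the strand. The sources used here do not give the plant line or the start of the drought treatment.

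The crown of a grass is the compressed base of the shoot from which leaves, tillers and shoot-borne roots arise. In grasses these shoot-borne roots, also called crown roots, make up much of the mature root system, whereas the seedling first lives on its primary root. Growth of crown roots is known to be held back when the soil around the shoot base is dry and to resume on watering. A drought crown that differs from a younger watered crown can therefore do so through the days between harvests, through water supply, or through both, and the comparison asks how far it had moved on.

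Gene levels are in FPKM, a fragment count scaled by transcript length and sequencing depth, with 1 value per group that the authors made from its 3 libraries. The values of single libraries were not analysed here, so no level carries a standard deviation and the depth per library is unknown. A gene is said to have risen, fallen or been called where its q-value (adjusted p) in the authors' deposited table was under 0.05. No gene carried a description in the files, and none could be paired with the 34587 genes of the reference gene table (0 matches). Genes therefore go by their identifiers and by the coordinates of the files, and no function is given for any of them. In bulk tissue, fewer cells of a type and less RNA per cell cannot be told apart.

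The labels of region were checked with 1191 genes higher (6.44%) and 1986 genes lower (10.7%) in the crown than in the stem of drought plants at day 6, groups that are not part of the comparison. The crown-higher genes had a median log2 difference of 1.14 between crown and stem of drought plants at day 9 (1184 genes listed) and of 1.41 in watered plants at day 6 (1141 listed). For the stem-higher genes these medians were -0.87 (1910 listed) and -1.36 (1977 listed). Both groups of the comparison thus lay on the crown side.

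Drought day 9 crowns differed from watered day 6 crowns in 2740 of 19591 genes, which is 14% of the genes listed. Of these, 1635 genes rose (8.35%) and 1105 fell (5.64%). As ratios of group FPKM, rises were larger than falls. Among genes above 0 FPKM in both groups, 87 were called at least 8-fold higher and 16 at least 8-fold lower. The median log2 fold change was 1.46 for called rises and -1.18 for called falls. Over all genes listed the median log2 fold change was 0.07. Another 280 genes rose between 4- and 8-fold and 101 fell between 4- and 8-fold, while 269 of the rises and 357 of the falls were under 2-fold. The q-values were adjusted by the authors over all 28 tables jointly, and adjusted within this table alone 1605 genes were higher and 1067 lower.

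**Figure D1:**
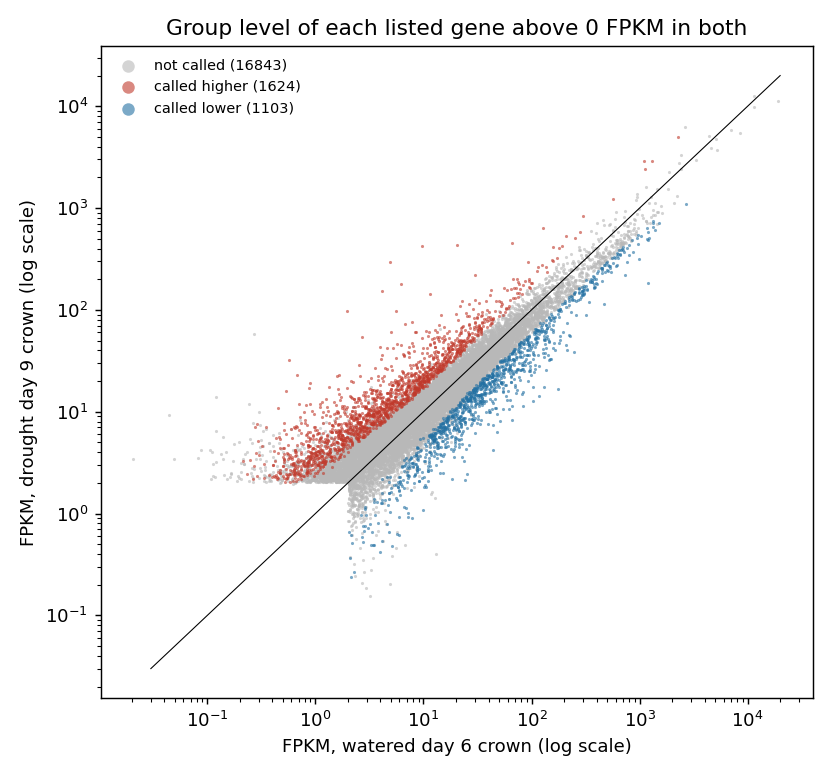
Group FPKM of each listed gene in drought day 9 crowns (vertical, log scale) against watered day 6 crowns (horizontal, log scale), for genes above 0 FPKM in both groups, with the line of equal level. The 1624 called rises reach down to the lowest levels of the watered crown, whereas most of the 1103 called falls start from higher levels.

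By their level in the other 6 groups, the genes that fell were mostly abundant ones, and the genes that rose were mostly scarce. Levels were taken as the mean FPKM over those groups, 4 of which were stems. The listed genes were divided by that mean into 4 bands of equal size. Of the rises, 45.6% were called higher in the crown than in the stem of watered plants at day 9 (12% of all genes of that pair). Of the falls, 48.5% were called lower there (6.88% of all genes). The part of region in the bands was not tested. In the lowest band (mean up to 4.61 FPKM) 832 of 4898 genes rose, 17.0%, and 45 fell, 0.919%. In the highest band (mean from 26.3 FPKM) 166 of 4898 genes rose, 3.39%, and 700 fell, 14.3%. The second band had 386 rises and 101 falls, and the third 251 rises and 259 falls, so that the balance turned gradually with level. By another measure of level, the mean of the 2 compared groups, genes at or above the median of the table had a different balance from the whole: 636 rose and 824 fell, and the share of falls among calls was 56.4%, against 40.3% in the whole table.

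The table lists a gene where its higher group reached about 2 FPKM, so a scarce gene can enter it through the group in which it is high. There were 1710 genes at 2 FPKM or more in drought day 9 crowns alone, 496 of them called higher, and 405 genes at 2 FPKM or more in watered day 6 crowns alone, 72 of them called lower. Among the 17474 genes at 2 FPKM or more in both groups, 1139 rose and 1033 fell. In the lowest band of these, 342 rose and 8 fell, and in the highest band 166 rose and 700 fell. This limit depends on the change itself, since it leaves out genes that rose from under 2 FPKM or fell to under 2 FPKM. It left out the 496 called rises and 72 called falls above. These counts therefore do not show the turn with level apart from the listing.

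In terms of the transcript pool, the 1105 called falls held 7.98% of the summed FPKM in drought day 9 crowns and 15.3% in watered day 6 crowns. In the other crown groups, which the calls did not use, the same genes held 10.6% in watered plants at day 9 and 12.8% in drought plants at day 6, between the values of the compared groups. The 1635 called rises held 8.96% of the summed FPKM in drought day 9 crowns and 3.19% in watered day 6 crowns, with 6.17% in watered day 9 crowns and 4.31% in drought day 6 crowns. In stems the called falls also held less at day 9 than at day 6, with 13.9% in drought and 17.1% in watered stems at day 9, and 18.6% and 19.9% at day 6 in the same order.

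The 8 largest rises were taken among called genes that reached 13.2 FPKM in their higher group, the median of that value over the genes listed. Sevir.5G107400 (chromosome 5, 8589094 to 8589929) stood at 295 FPKM in drought day 9 crowns and 4.89 FPKM in watered day 6 crowns, and the authors' deposited table gives a log2 fold change of 5.92 with q = 0.00091. The other crown groups lay between, at 29.8 FPKM in watered day 9 and 39.9 FPKM in drought day 6 crowns, and every stem group was at or under 4.08 FPKM. Sevir.7G029400 (chromosome 7, 9224001 to 9227104) stood at 32.4 FPKM in drought day 9 crowns and 0.570 FPKM in watered day 6 crowns, and its log2 fold change in the authors' deposited table was 5.83, with q = 0.00091. Its level was higher under drought in both regions at both days, with 0.649 FPKM in watered day 9 crowns and 9.44 FPKM in drought day 6 crowns, and with 9.51 and 4.40 FPKM in the drought stems of day 9 and day 6 against 0.183 and 0.604 FPKM in the watered stems.

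Neighbouring genes of chromosome 5 followed. Sevir.5G091000 stood at 97.0 FPKM in drought day 9 crowns and 1.94 FPKM in watered day 6 crowns (log2 fold change 5.64 and q = 0.0162, from the authors' deposited table). Sevir.5G091200 stood at 426 and 9.68 FPKM in the same order, and Sevir.5G090900 at 154 and 4.17 FPKM. The authors' deposited table has these genes at log2 5.46 and 5.21, each with q = 0.00091. The 3 genes were low in watered crowns at day 9, at 2.89, 18.2 and 13.3 FPKM, and high in drought crowns at day 6, at 97.2, 206 and 118 FPKM. Sevir.5G091100, which lies between them, had the largest log2 difference of the uncalled genes that reached 13.2 FPKM in the higher group and were not listed at 0 in the other. It stood at 58.1 FPKM in drought day 9 crowns and 0.272 FPKM in watered day 6 crowns (log2 fold change 7.74 and q = 0.477, from the authors' deposited table). The next uncalled genes were Sevir.5G166400, at 13.8 and 0.121 FPKM in the same order, and Sevir.9G315500, at 17.5 and 3.25 FPKM (q = 0.437 and q = 0.518, from the authors' deposited table).

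Of the remaining 3 of the largest rises, 1 was also high in the stem and the others were scarce there. Sevir.5G302500 (chromosome 5, 34362836 to 34363959) stood at 179 FPKM in drought day 9 crowns and 6.17 FPKM in watered day 6 crowns, and at 232 FPKM in drought day 9 stems and 5.76 FPKM in watered day 6 stems. Sevir.8G213900 (chromosome 8, 35043689 to 35045306) stood at 22.7 FPKM in drought day 9 crowns and 0.674 FPKM in watered day 6 crowns, with 3.14 FPKM in watered day 9 crowns, and at or under 0.0939 FPKM in every stem group. Sevir.7G300200 (chromosome 7, 32420868 to 32422060) stood at 15.8 FPKM in drought day 9 crowns and 0.537 FPKM in watered day 6 crowns, with 2.77 FPKM in watered day 9 crowns and no stem group above 0.615 FPKM. In the authors' deposited table these genes had log2 fold changes of 4.86 (q = 0.00091), 5.08 (q = 0.00298) and 4.88 (q = 0.0195). With 1 FPKM added to both groups, the log2 differences were 4.65, 3.83 and 3.45, so the last 2 depended more on the low level in watered day 6 crowns. Sevir.7G300200 and Sevir.5G091000 did not pass at a q under 0.01.

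The largest falls, taken by the same rule, were smaller than the largest rises. Sevir.9G087500 (chromosome 9, 5336552 to 5338603) stood at 2.16 FPKM in drought day 9 crowns and 24.2 FPKM in watered day 6 crowns (log2 fold change -3.49, from the authors' deposited table). Sevir.3G270500 (chromosome 3, 22193824 to 22198204) stood at 16.8 FPKM in drought day 9 crowns and 174 FPKM in watered day 6 crowns (log2 fold change -3.37, from the authors' deposited table). Sevir.7G224000 (chromosome 7, 27308105 to 27309769) stood at 14.4 FPKM in drought day 9 crowns and 117 FPKM in watered day 6 crowns (log2 fold change -3.02, from the authors' deposited table, which has all 3 at q = 0.00091). For each of these 3 genes, watered day 9 and drought day 6 crowns lay between the extremes and near each other: 6.11 and 5.04 FPKM for the first, 80.1 and 56.4 FPKM for the second, and 67.7 and 56.9 FPKM for the third.

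The other 5 of the largest falls were Sevir.2G057600, Sevir.4G238100, Sevir.9G227600, Sevir.6G180400 and Sevir.7G291700, for which the authors' deposited table gives log2 fold changes between -3.40 and -3.00 and q of at most 0.00167. Stem groups hold none of the libraries that chose these genes. All 8 of the largest falls were also called lower in drought day 9 stems than in watered day 6 stems, and the authors' deposited table for that pair has them between -5.37 for Sevir.2G057600 and -1.61 for Sevir.6G180400 on the log2 scale. Of all 18431 genes of that stem pair, 12.8% were called lower and 8.27% higher. Of the 8 largest rises, 6 were listed in that stem table and 5 were called, all higher.

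**Figure D2:**
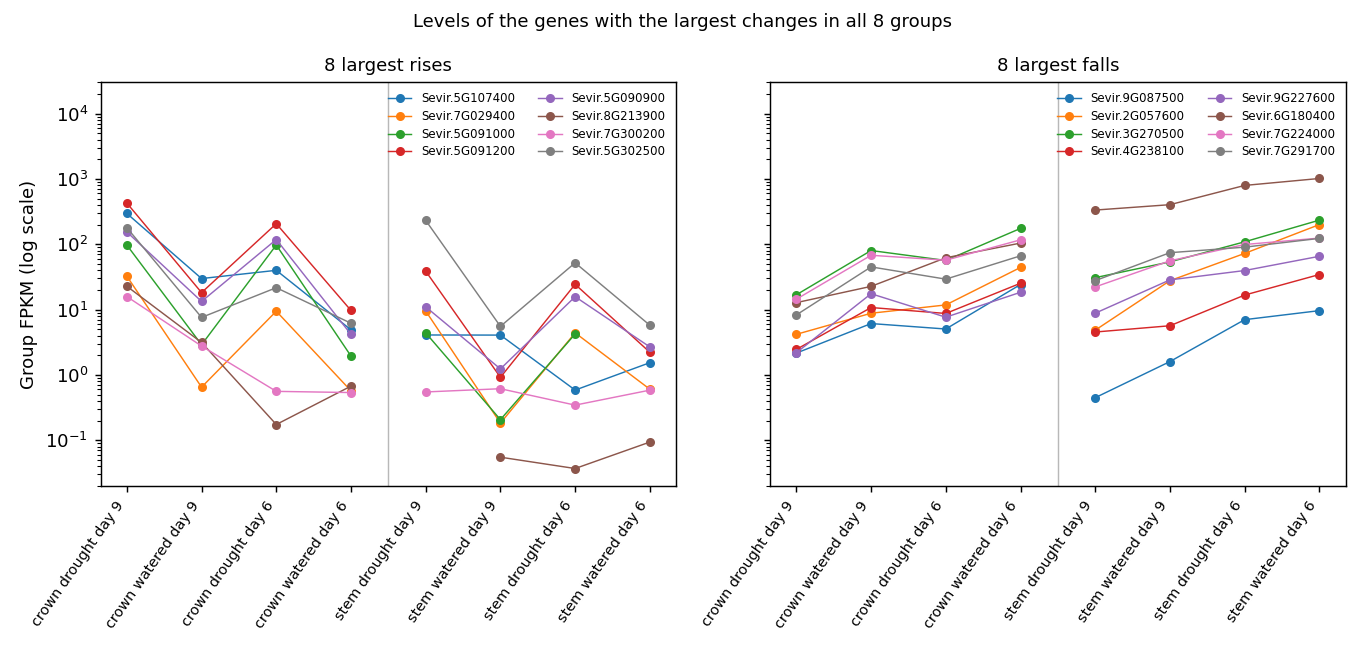
Group FPKM (log scale) of the 8 largest rises (left) and the 8 largest falls (right) in the 4 crown and the 4 stem groups, where a group listed at 0 has no point. Several rises are high in both drought groups of a region, as Sevir.5G091200 is at 426 and 206 FPKM in drought crowns at day 9 and day 6, whereas all 8 falls are lower in drought day 9 than in watered day 6 groups in stems as in crowns.

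The 4 most abundant genes that rose at least 2-fold were Sevir.3G065500, Sevir.3G065400, Sevir.3G080800 and Sevir.5G101000. Sevir.3G065500 stood at 4932 FPKM in drought day 9 crowns and 2263 FPKM in watered day 6 crowns (log2 fold change 1.12 and q = 0.0258, from the authors' deposited table). Its neighbour Sevir.3G065400 stood at 2891 and 1308 FPKM in the same order (log2 fold change 1.14 and q = 0.00629, from the authors' deposited table). The position entries of these 2 genes on chromosome 3 abut, at 4248039 to 4248707 and 4247414 to 4248039, and the sources used here do not give how reads at the border were counted. Sevir.3G080800 stood at 2873 and 1102 FPKM, and Sevir.5G101000 at 2408 and 1120 FPKM, in drought day 9 and watered day 6 crowns (q = 0.0114 and q = 0.0308, from the authors' deposited table). Of these 4 rises, only Sevir.3G065400 passed at a q under 0.01. In stems, where levels were lower, all 4 were called higher in drought day 9 than in watered day 6 plants (8.27% of all genes of that pair), and 3 of the 4 were called higher in drought than in watered plants at day 9 (1.26% of all genes).

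The most abundant falls were Sevir.6G242900, at 1101 FPKM in drought day 9 crowns and 2700 FPKM in watered day 6 crowns, Sevir.7G206600, Sevir.1G247000 and Sevir.9G442400. In the authors' deposited table these 4 lay between -1.29 and -1.03 on the log2 scale, with q from 0.00091 to 0.0191. Sevir.1G247000 went the other way in the stem. It stood at 608 FPKM in drought day 9 crowns and 1402 FPKM in watered day 6 crowns, but at 1393 FPKM in drought day 9 stems and 500.2 FPKM in watered day 6 stems (log2 fold change 1.48 and q = 0.00091, from the authors' deposited table). Whether the crown and stem differences of this gene differ was not tested.

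Few called genes were listed at 0 in a group: 11 of the rises in watered day 6 crowns and 2 of the falls in drought day 9 crowns. The highest of the 11 was Sevir.9G381700 (chromosome 9, 41770163 to 41770484), at 15.5 FPKM in drought day 9 crowns, 1.45 FPKM in watered day 9 crowns and 0.161 FPKM in drought day 6 crowns, and listed at 0 in all 4 stem groups. Sevir.6G251000 stood at 13.5 and Sevir.6G092300 at 11.2 FPKM in drought day 9 crowns. The genes listed at 0 in drought day 9 crowns were scarce, Sevir.7G040500 at 3.57 FPKM and Sevir.3G289700 at 2.36 FPKM in watered day 6 crowns. No fold change is given against a group listed at 0.

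The pair was then placed among the 6 pairs of the 4 crown groups. These pairs share libraries, and their numbers are given side by side without a test. The comparison of drought day 9 with watered day 6 crowns had the most called genes of the 6, and the excess lay in the falls. Its 1105 falls compare with 504 genes lower at day 9 than at day 6 in drought crowns (2.59% of those listed) and 388 in watered crowns (2%). Against watered crowns of the same day, drought crowns had 834 genes lower at day 9 (4.17%) and 291 at day 6 (1.58%). Its 1635 rises compare with 1553 genes higher at day 9 than at day 6 in drought crowns (7.97%) and 1661 in watered crowns (8.56%). Higher under drought were 440 genes at day 9 (2.2%) and 92 at day 6 (0.5%). Across the 20865 genes, the Pearson correlation of log2(FPKM + 1) was 0.932 between drought day 9 and watered day 6 crowns. It was 0.916 in the pair of watered day 9 and drought day 6 crowns, 0.940 and 0.938 between days in drought and in watered crowns, and 0.941 and 0.979 between drought and watered crowns at day 9 and at day 6, so that the pair with the most called genes was not the least alike by this measure. The called rises had a median log2 fold change of 1.33 between days in drought crowns (1635 listed) and 1.01 in watered crowns (1462 listed), and of 0.46 under drought at day 9 (1635 listed) and 0.19 at day 6 (1233 listed). For the called falls these medians were -0.81 (1081 listed), -0.65 (1105 listed), -0.52 (1073 listed) and -0.38 (1105 listed).

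**Figure D3:**
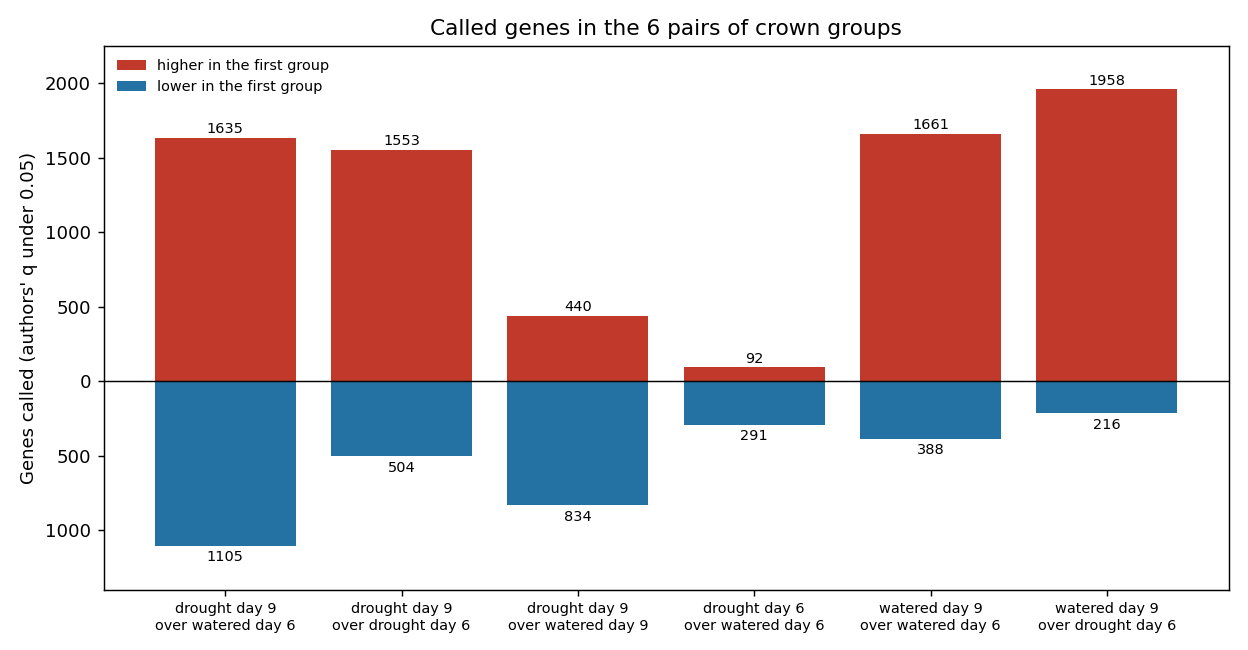
Number of genes called at the authors' q under 0.05 in each pair of crown groups, higher in the first-named group above the line and lower below it. The 1105 falls between drought day 9 and watered day 6 crowns are the most of any pair, while the 1635 rises are close to the 1661 of watered day 9 over watered day 6 crowns.

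The reciprocal pair, watered day 9 crowns against drought day 6 crowns, shares no library with the comparison and differs by the same days but by the opposite water supply. In it 1958 genes were higher and 216 lower, 10% and 1.1% of 19551 genes. Where the differences between days outweigh those between water supplies, a gene has the same sign in both pairs, and in the opposite case it has opposite signs. For genes above 0 FPKM in the 4 crown groups, 1322 of the 1623 called rises, 81.5%, had the same sign in the reciprocal pair. For called falls this was 828 of 1103, or 75.1%, and for genes called neither way 59.8%. The 4 groups come from the same 3 repeats, so any deviation the repeats have in common remains in both pairs.

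Most genes, rises and falls included, were not called in the reciprocal pair. Of all 19551 genes listed there, 10% were called higher and 1.1% lower. In the comparison, 7.98% of genes listed in both pairs rose and 5.79% fell. Of the 1635 rises, 590 were also called higher there, 36.1% of the rises and 35.0% of the 1686 higher genes of that pair listed in both, 37 were called lower there, 874 were called neither way and 134 were not listed. Of the 1105 falls, 63 were also called lower in the reciprocal pair, 5.70% of the falls and 29.6% of the 213 lower genes of that pair listed in both, 50 were called higher there, 976 were called neither way and 16 were not listed. With the reciprocal pair's lower genes taken at a q under 0.01, the balance turned, with 36.6% of them called higher and 23.9% lower in the comparison, against 17.4% and 29.6% at a q under 0.05. The median log2 fold change in the reciprocal pair was 0.82 for the 1501 listed rises and -0.29 for the 1089 listed falls. The corresponding medians in the comparison itself, which chose the genes, were 1.46 and -1.18.

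Among the 590 genes that rose in both pairs, Sevir.2G324600 (chromosome 2, 39322399 to 39326315) had close levels at each day whatever the water supply. It stood at 16.9 FPKM in drought day 9 crowns and 0.880 FPKM in watered day 6 crowns, and at 15.3 FPKM in watered day 9 crowns and 0.974 FPKM in drought day 6 crowns. The authors' deposited tables have it at log2 4.26 and 3.98 in these pairs, each with q = 0.00091, and no stem group exceeded 0.587 FPKM. Sevir.2G029300 (chromosome 2, 2291217 to 2292083) stood at 145 FPKM in drought day 9 crowns and 11.4 FPKM in watered day 6 crowns, and at 128 FPKM in watered day 9 crowns and 5.91 FPKM in drought day 6 crowns. This gene was also higher at day 9 in stems, with 29.8 FPKM in drought and 42.3 FPKM in watered stems, against 7.86 and 2.66 FPKM at day 6.

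The 37 genes that rose here and were lower in the reciprocal pair included Sevir.1G012100 (chromosome 1, 939299 to 946263), at 435 FPKM in drought day 9 crowns and 20.6 FPKM in watered day 6 crowns. This gene stood at 25.7 FPKM in watered day 9 crowns and 331 FPKM in drought day 6 crowns. Sevir.7G066700 (chromosome 7, 14992980 to 14997091) had 76.3 FPKM in drought day 9 crowns and 7.88 FPKM in watered day 6 crowns, and 7.34 FPKM in watered day 9 crowns and 60.9 FPKM in drought day 6 crowns. In each, the drought levels of both days lay well above the watered levels of both days. The stem gives an outside view of these 37 genes: of the 33 listed in drought against watered stems at day 9, 27 were called higher and 0 lower, with a median log2 fold change of 2.06, where 1.26% of all genes of that stem pair were higher and 2.37% lower. At day 6, 20 of 32 listed were called higher in drought stems and 0 lower, where 0.528% of all genes were higher and 0.916% lower.

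Among the 50 genes that fell here and were higher in the reciprocal pair, the highest level was in watered day 9 crowns for the 3 genes with the largest negative water part and a day part under 0.5 in size. These 3 were taken among called genes that reached 13.2 FPKM in their higher group. Sevir.3G354700 (chromosome 3, 42621706 to 42622277) stood at 4.80 FPKM in drought day 9 crowns and 22.8 FPKM in watered day 6 crowns, and at 61.9 FPKM in watered day 9 crowns and 14.9 FPKM in drought day 6 crowns. Sevir.2G444300 stood at 7.36 FPKM in drought day 9 crowns and 27.6 FPKM in watered day 6 crowns, and Sevir.9G038400 at 15.8 and 54.2 FPKM. Watered day 9 crowns had 61.3 FPKM of Sevir.2G444300 and 77.1 FPKM of Sevir.9G038400. In the authors' deposited table the 3 genes had log2 fold changes of -2.25, -1.91 and -1.78, with q of at most 0.00472. Of the 50 genes, 48 were listed in drought against watered stems at day 9, of which 28 were called lower and 0 higher, with a median log2 fold change of -1.14, where 2.37% of all genes of that stem pair were lower and 1.26% higher.

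Among falls that reached 13.2 FPKM in their higher group, 3 were taken with the largest negative day part and a water part under 0.5 in size. The first, Sevir.4G177600 (chromosome 4, 26243946 to 26245097), stood at 23.4 FPKM in drought day 9 crowns and 66.8 FPKM in watered day 6 crowns. It stood at 14.3 FPKM in watered day 9 crowns and 73.3 FPKM in drought day 6 crowns. Sevir.9G426800 stood at 4.55 FPKM in drought day 9 crowns and 21.1 FPKM in watered day 6 crowns, and Sevir.2G307500 at 3.82 and 13.3 FPKM. All 3 were called lower in the reciprocal pair and in watered day 9 against watered day 6 stems. In the comparison, the authors' deposited table has the 3 genes at log2 -1.51, -2.22 and -1.80, and Sevir.2G307500 did not pass at a q under 0.01 (q = 0.0402). Of the 63 genes that fell in both crown pairs, 31 were called lower at day 9 than at day 6 in watered stems and 3 higher, where 6.76% of all genes of that pair were lower and 4.41% higher.

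Each log2 difference was divided into 2 parts that sum to it exactly. The day part is the mean day 9 minus day 6 difference over both water supplies, and the water part is the mean drought minus watered difference over both days. The parts use the group values that chose the called genes and are given as a description. The median day part was 1.16 for the 1623 called rises above 0 FPKM in the 4 crown groups and -0.73 for the 1103 called falls. The median water part was 0.31 for the rises and -0.43 for the falls, so that the water part was closer in size to the day part in the falls than in the rises. A day part of at least 0.5 in the direction of the call was found in 1427 of the rises (87.9%) and in 883 of the falls (80.1%). For the water part this was 559 of the rises (34.4%) and 465 of the falls (42.2%).

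Rises and falls also differed in parts that pointed against the call. The water part was at or under -0.5 in 177 of the called rises, whose median day part was 2.55, while in the falls no gene had a water part at or over 0.5. A part that points against the call needs a larger part in its direction, since the 2 sum to the difference that chose the gene. Falls were also smaller than rises as log2 differences. By their level in the groups not compared, rises were mostly scarce genes and falls mostly abundant ones. The part of size and of level in this difference was not tested. The lowest water parts, in Sevir.5G028800 and Sevir.9G335300, rest on 0.0693 and 0.311 FPKM in drought day 6 crowns. Neither gene was called in the reciprocal pair (q = 0.455 and q = 0.321, from the authors' deposited table). Sevir.3G194800 (chromosome 3, 14194996 to 14196543), chosen after its values were seen, stood at 20.6 FPKM in drought day 9 crowns and 8.29 FPKM in watered day 6 crowns, and at 93.9 FPKM in watered day 9 crowns and 1.17 FPKM in drought day 6 crowns. Sevir.5G129100 (chromosome 5, 10549762 to 10550727), also chosen after its values were seen, had its highest level in drought day 6 crowns, with 20.6 FPKM in drought day 9 crowns and 3.82 FPKM in watered day 6 crowns, and with 1.89 FPKM in watered day 9 crowns and 43.7 FPKM in drought day 6 crowns.

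**Figure D4:**
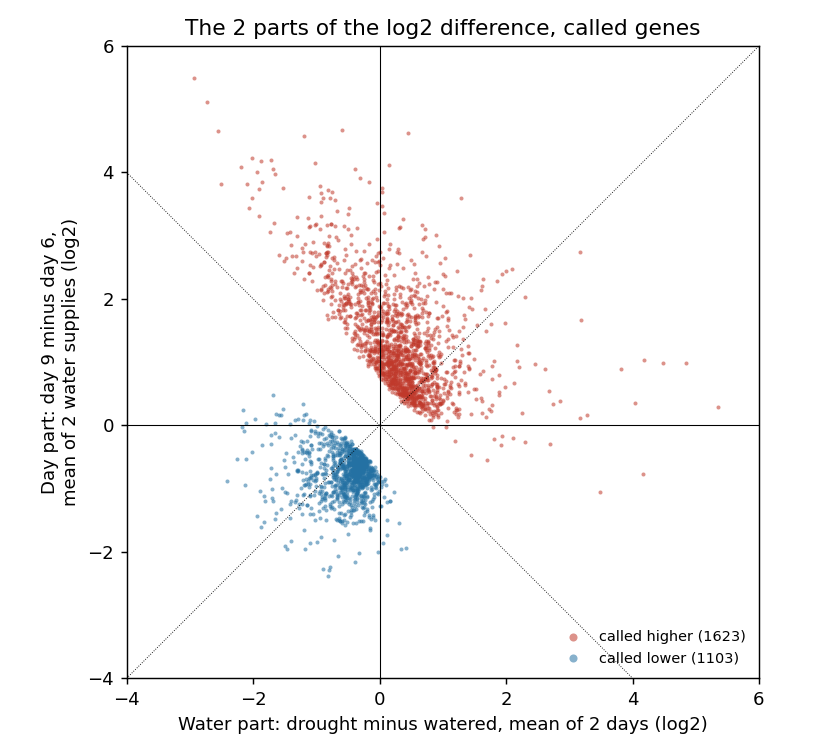
Day part (vertical, log2) against water part (horizontal, log2) of each called gene above 0 FPKM in the 4 crown groups, where the 2 parts sum to the log2 difference between drought day 9 and watered day 6 crowns and dotted lines mark parts of equal size. The 1623 rises spread up the day axis to both sides of 0 on the water axis, and a few reach water parts above 4 (5.36 for Sevir.5G091000), while the 1103 falls lie closer together with both parts mostly below 0.

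Gene lists from pair tables that use neither of the 2 groups were then followed into the comparison. Their libraries are other ones, but come from the same 3 repeats. For genes higher in drought than in watered stems at day 9 (1.26% of those listed in the stem pair), 116 of the 221 listed, or 52.5%, rose in drought day 9 crowns and 0 fell, with a median log2 fold change of 0.95. Of genes listed in both tables, 6.20% rose and 6.14% fell, with a median of 0.02. The 93 listed genes higher in drought stems at day 6 (0.528% of that stem pair) had 39 rises (41.9%), 0 falls and a median of 0.80. Of genes listed in both of those tables, 5.45% rose and 6.36% fell. Genes of these 2 lists were thus either higher in the drought day 9 crown or not called.

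Genes lower under drought in the stem divided in the crown. Of the 414 listed genes lower in drought than in watered stems at day 9 (2.37% of that pair), 131 fell (31.6%) and 81 rose (19.6%), both above the shares of all genes listed in both tables, and the median log2 fold change was -0.04. For the list of day 6 (0.916% of that pair) there were 32 falls (21.3%) and 24 rises (16%) among 150 genes, and the median was 0.06. Of genes listed in both of those tables, 6.36% fell and 5.45% rose. The reciprocal crown pair gives a further view: of the 417 genes that rose in both crown pairs and were listed in drought against watered stems at day 9, 79 were called lower in drought stems and 6 higher, beside the same 2.37% and 1.26% of all genes.

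**Figure D5:**
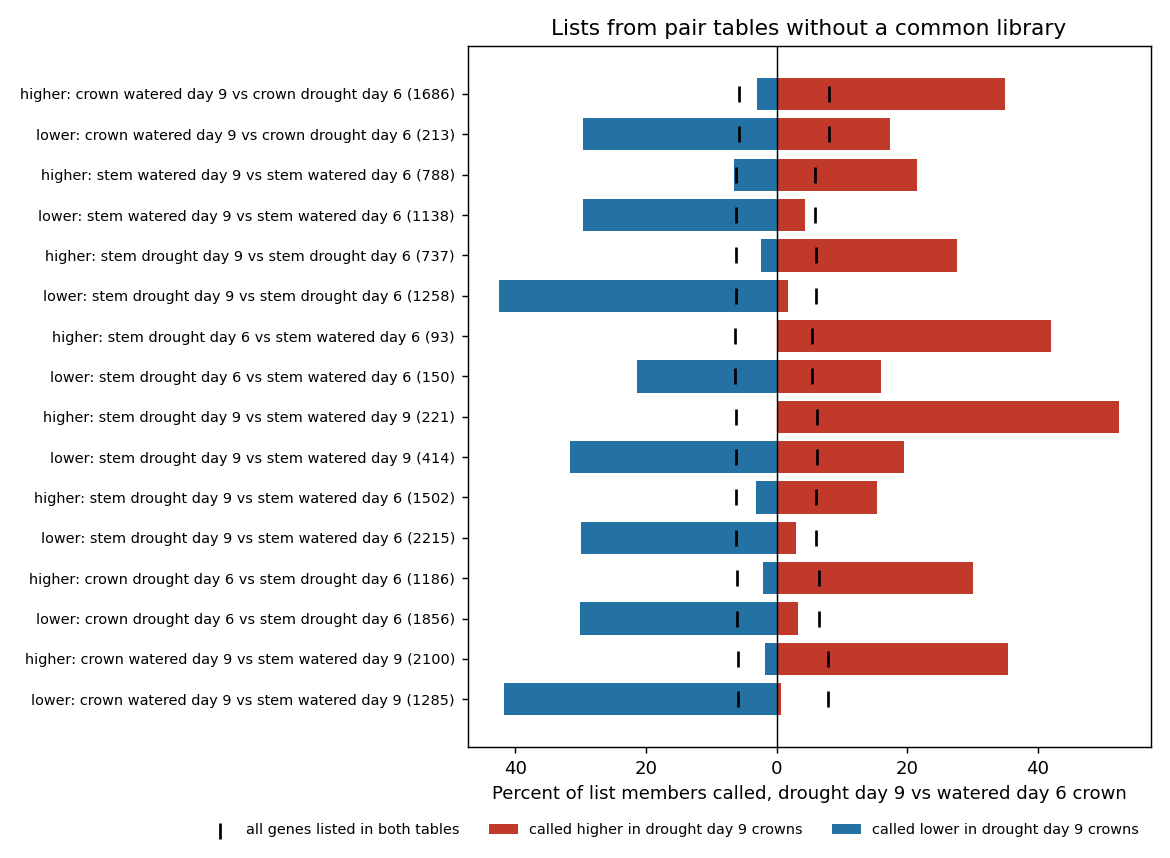
Percent of the members of each list called higher (right, red) or lower (left, blue) in drought day 9 against watered day 6 crowns, with the number of listed members in brackets and black marks for all genes listed in both tables. Genes higher in drought day 9 than in watered day 9 stems reach 52.5% on the right and 0 on the left, and genes lower in watered day 9 crowns than stems reach 41.7% on the left.

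Genes that were lower at day 9 than at day 6 in stems fell here in a larger share than all genes listed in both tables. Of the 1258 listed genes lower at day 9 in drought stems (7.3% of that pair), 535 also fell in the comparison, 42.5% against 6.17% of genes listed in both tables, and 22 rose. These 535 make up 48.4% of all called falls of the comparison. For the 1138 genes lower at day 9 in watered stems (6.76%), 337 fell (29.6%, against 6.24% of genes listed in both tables) and 50 rose. Of genes higher at day 9, 204 of 737 in drought stems (27.7%) and 169 of 788 in watered stems (21.4%) rose in the comparison, against 6.00% and 5.93% of genes listed in both tables. These stem lists were 4.08% and 4.41% of the genes of their pairs. They make up 12.5% and 10.3% of the called rises, and the difference from the share of the falls was not tested. The drought and watered stem pairs listed only 1059 and 1043 of the 1635 rises, but 1089 and 1096 of the 1105 falls. Shares of all rises and of all falls are therefore not on an equal footing.

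The stem pair with the same design, drought day 9 against watered day 6, listed 1097 of the called falls and 1065 of the called rises. Of the falls, 662 were called lower in the stem as well and 47 higher, with a median log2 fold change of -1.06 in the stem. Of the rises, 231 were called higher in the stem and 67 lower, with a median of 0.36. In that pair 1525 genes were higher and 2351 lower of 18431 listed, 8.27% and 12.8%.

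Genes that differed between crown and stem rose or fell in the direction of the crown where they were called, with few exceptions. Of 2100 listed genes higher in the crown than in the stem of watered plants at day 9 (12% of that pair), 745 rose (35.5%, against 7.88% of genes listed in both tables) and 37 fell. Of 1285 genes lower in the crown than in the stem there (6.88%), 536 fell (41.7%, against 5.88%) and 8 rose. Region differences were also taken from drought plants at day 6. Of 1186 crown-higher genes there, 356 rose (30.02%, against 6.54% of genes listed in both of those tables) and 25 fell. Of 1856 stem-higher genes, 558 fell (30.06%, against 6.07%) and 61 rose. In both lists the median log2 fold change had the sign of the region difference, at 0.78 and -0.81 for the day 9 lists and 0.57 and -0.60 for the day 6 lists. The share of crown tissue in the harvested pieces was not measured, and its part in these values was not tested. The day 9 lists can also take in genes that changed in the crown between the days, and the part of day in their shares was not tested.

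By position, chromosome 8 stood out among the rises. Of its 1092 listed genes 161 rose, 14.7%, while the other 8 chromosomes ranged between 6.91% on chromosome 1 and 9.21% on chromosome 7. For falls chromosome 8 had 5.13%, within the range of 4.47% to 6.30% of the others. Scarce genes are more frequent on chromosome 8, with 33.5% of its genes in the lowest band of level against 24.5% on the other chromosomes. Within the lowest band, 102 of 366 genes of chromosome 8 rose, 27.9%, against 16.2% on the other chromosomes, and within the second band the shares were 12.8% and 7.56%. In the upper bands they were 6.06% against 5.04% and 3.88% against 3.36%. In the reciprocal pair, with no library in common, chromosome 8 had 17.0% of its genes called higher and the others 8.43% to 10.8%. Between drought and watered crowns chromosome 8 also lay above the others in 3 of 4 shares. At day 9 it had 3.80% of genes higher, against at most 2.69% on another chromosome, and 5.57% lower, against at most 5.26%. At day 6 it had 3.13% lower, against at most 1.80%, while its 0.707% higher lay within the range of the others. In stems it was above the others in both directions between days and between water supplies, as with 7.48% higher at day 9 than at day 6 in watered stems, against at most 5.17%, and 4.43% lower in drought than in watered stems at day 9, against at most 2.71%. Between drought day 9 and watered day 6 stems, its 9.33% higher lay within the range of 7.46% to 9.90% of the others. Its share lower in that stem pair was 13.6%, against at most 13.4%.

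Called genes formed 15 runs of at least 4 consecutive listed genes called in the same direction, 14 of them higher with 61 genes and 1 lower with 5 genes. The longest held 6 genes on chromosome 8 between 38231889 and 38340189 (Sevir.8G245000 to Sevir.8G245700), for which the authors' deposited table has log2 fold changes between 0.90 and 1.78. Their levels lay between 8.86 and 34.3 FPKM in drought day 9 crowns and between 2.78 and 12.5 FPKM in watered day 6 crowns. Of these 6 genes, 5 were called higher in the reciprocal pair, where the authors' deposited table has them between log2 1.89 and 2.56, and the same 5 were called higher at day 9 than at day 6 in drought stems. Sevir.8G245200, the exception, had a log2 fold change of 0.13 in the reciprocal pair (q = 0.890, from the authors' deposited table).

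Of the 4 runs with 5 genes, the first by chromosome, on chromosome 3 between 5800063 and 5875774, held 5 scarce genes (Sevir.3G089200, Sevir.3G089400, Sevir.3G089500, Sevir.3G090000 and Sevir.3G090200). In drought day 9 crowns they stood between 2.24 and 6.30 FPKM and in watered day 6 crowns between 0.332 and 1.39 FPKM, and the authors' deposited table has them between log2 2.02 and 2.76. All but Sevir.3G090000 lost the call at a q under 0.01. The single lower run, chosen after the values were seen, lay on chromosome 8 between 36770217 and 36806777 (Sevir.8G229100 to Sevir.8G229600). Its 5 genes stood between 2.45 and 11.0 FPKM in drought day 9 crowns and between 8.42 and 50.6 FPKM in watered day 6 crowns, and their log2 fold changes ran from -2.64 to -1.78 (the authors' deposited table). A run on chromosome 5 (Sevir.5G090500 to Sevir.5G091000) takes in 2 of the largest rises. Within it Sevir.5G090800 stood at 39.7 FPKM in drought day 9 crowns and 17.3 FPKM in watered day 6 crowns, and at 31.4 FPKM in watered day 9 crowns and 8.85 FPKM in drought day 6 crowns, unlike Sevir.5G090900 and Sevir.5G091000, which were high in both drought groups.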

How the data were processed

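RNA-seq of 24 libraries in 8 groups was analysed from 28 deposited tables, 1 for each pair of groups. Cuffdiff, cutadapt and FastQC stand in the submitters' processing notes, and their versions, the aligner, the genome build and the strand setting were not given in the sources used here. FPKM values were deposited as 1 value per group, made by the authors from the 3 libraries of that group. The deposited log2 fold changes equal the log2 ratio of these group FPKM values, checked to within 1.4e-05. The p-values and q-values are the authors' own, as deposited, and the q-values equal a Benjamini-Hochberg adjustment over the 531416 rows of all tables, checked to within 5.3e-07. The smallest p in the comparison was 5e-05, shared by 700 genes, so q does not rank those genes.

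No new test was fitted, since single-library values were not analysed here. The authors' p-values therefore rest on a spread among 3 libraries per group that could not be examined. Genes were called at q under 0.05, and tables were joined by gene identifier. Fold changes, parts, lists and runs were computed with Python 3.11.15, pandas 2.3.3 and numpy 2.4.6, and figures with matplotlib 3.10.9. The Benjamini-Hochberg adjustment, the calling after it, and the day and water parts were checked on simulated data. The lists, level bands and runs were not checked in that way. The comparison and the lists were chosen with earlier results of these data known.

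Named genes were the 8 largest rises and falls with a higher-group level of at least 13.2 FPKM, the 4 most abundant 2-fold rises and falls, and up to 3 called genes listed at 0 in either group. To these came the 3 genes at each end of the water part and the day part with the other part under 0.5 in size, the members of 2 runs (the longest and, of 4 tied at 5 genes, the first by chromosome), and the 3 largest uncalled differences. The genes chosen by their parts were called genes with the same minimum of 13.2 FPKM and above 0 FPKM in the 4 crown groups. In the table, 1462 genes shared a position entry with another gene, and the sources used here do not give how the authors assigned their reads. The alternatives tried were a stricter q, adjustment within the table, a fold minimum, filters on low values, pseudocounts and centring.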

Additional observations from a re-analysis of the deposited data

How the results depend on the processing

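At a q under 0.01, 775 genes were higher and 584 lower in drought day 9 than in watered day 6 crowns. With genes only whose mean FPKM over the 2 compared groups was at or above the table's median, 636 were higher and 824 lower, so that 56.4% of calls were lower, against 40.3% in the whole table, and the median log2 fold change of all genes was -0.074 in place of 0.071. The filter itself removes the scarce genes, among which rises prevailed. Adjustment within the table, a 2-fold minimum, and genes above 0 FPKM in both groups gave between 1366 and 1624 higher and between 748 and 1103 lower genes. The last filters, chosen after seeing the data, gave 1603 higher and 1068 lower genes without shared position entries, and 1139 higher and 1033 lower with 2 FPKM or more in both groups. Of 45 named genes that were called and above 0 FPKM in both groups, 12 lost the call at a q under 0.01 and 0 under adjustment within the table. A pseudocount and centring change the fold and not the q, so they say nothing of the calls. With list members at a q under 0.01, the percent called moved in 2 of 32 cases. Those were 36.6% higher, against 17.4%, for genes lower in the reciprocal pair, whose percent lower was 23.9, against 29.6%, so that more of them were higher than lower, and 38.5% lower, against 21.3%, for genes lower in drought stems at day 6.

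No paired analysis was possible because each group has a single deposited value per gene, and leaving out a repeat was not run for the same reason. Depth per library is unknown, so intervals that need it are not given.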
